A study of Daucus carota with 18 samples.

Results

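Outer phloem, which was purple (POP), was compared with inner phloem, which was not (NPIP), in the dark purple carrot roots of the set dP1, over the whole transcriptome. All 6 libraries of this set were used, out of 18 in the series: POP and NPIP of 3 roots, numbered 1 to 3 in the sample titles. The roots of dP1 had a high anthocyanin concentration in the outer phloem, with no purple colour in the inner phloem or the xylem. They were separate plants of a segregating F2 family grown in the field in California, so they were not clones of one genotype. Both tissues were dissected from a disc of the middle of each root. The set pP, with pale purple outer phloem, came from the same family and site, and the set dP2, with dark outer phloem and purple xylem, came from a related family grown in Wisconsin. These sets of 6 libraries each enter only the last comparison. Of the 32113 genes in the files, the 17452 with at least 1 CPM (a count scaled to the size of its library) in at least 3 of the 6 libraries were tested. Product names were at hand for 111 genes, 0.636% of those tested, so most of the transcriptome is described below by level, direction and root. For most of them the name is that of the best protein match and gives no more than likeness to that protein. Some names, such as DcMYB7, DcbHLH3 and DcUCGalT1, are of carrot genes that the study cites from earlier work.

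A carrot storage root consists of a periderm at the surface, a broad ring of secondary phloem, a cambium and the xylem at the centre. The outer phloem lies under the periderm and the inner phloem next to the cambium. Phloem carries sugars through sieve elements, and in carrot its parenchyma stores sugars and carotenoids. Anthocyanins are made from phenylalanine by PAL and 4CL, then by CHS, CHI, F3H, DFR and LDOX, and are glycosylated and moved to the vacuole. MYB, bHLH and WD-repeat proteins switch on the later of these genes.

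Totals were 7994328 to 9109738 expected counts per library, and 20564 to 21794 genes had at least 1 read. The first principal component of the log2 CPM held 67.8% of the variance and separated the 3 POP from the 3 NPIP libraries. The second, with 15.8%, separated both libraries of root 2 from those of roots 1 and 3, and the third, with 7.9%, separated root 1 from root 3. One POP library had a far lower median of anthocyanin transcripts than the others of dP1. The label of high anthocyanin is of pigment and not of transcripts. Over 16 anthocyanin genes, the median in the POP was 21.7 CPM in root 1, 248 CPM in root 2 and 156 CPM in root 3, on the scale of all 18 libraries. The pale purple pP roots had medians of 22.1 to 76.8 CPM in the POP on that scale. Root 1 of dP1 was therefore at about the level of the lowest pale root, pP replicate 1, in this measure. Gene by gene their order was mixed. LDOX had 33 CPM in the POP of root 1 of dP1 and 22.2 CPM in that of pP replicate 1, while CHS had 33.2 and 87.1 CPM. The part of these levels in the tissue comparison was examined by leaving out root 1, and these counts are given below.

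The 2 tissues differed in 3293 genes, 18.9% of those tested (FDR under 0.05 by the quasi-likelihood test of edgeR, with 3 roots per tissue). There were 1999 genes higher in the POP (11.5%) and 1294 lower (7.41%). The increases were larger than the decreases. The median log2 fold change (log2FC, POP over NPIP) was 2.62 among genes called higher, with quartiles of 1.5 and 4.54, and −1.31 among genes called lower, with quartiles of −2.23 and −0.92. The median over all genes tested was 0. A log2FC of at least 5 in size was fitted for 416 of the genes called higher and 33 of those called lower. No read at all was found in the NPIP for 108 of the genes called higher, whereas 5 of the genes called lower had none in the POP. Such genes could pass the filter only through the 3 libraries of the other tissue, and all 108 and 5 of them were called, so the filter fixed these calls. Of the calls, 1997 higher and 1291 lower genes had 3 POP libraries all above or all below the 3 NPIP libraries. Among all genes tested, 20.9% lay wholly above and 20% wholly below.

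The direction of the calls changed with the level of the gene. Under a mean log2 CPM of 2, 494 genes were higher in the POP and 173 lower, so that 74.1% of the calls were increases. From 2 to 4 the share was 72.5%, from 4 to 6 it was 57.6%, and from 6 to 8 it was 40%. At 8 and over, among the most abundant transcripts, 47 genes were higher and 104 lower, and 31.1% of the calls were increases. The POP thus had more calls among scarce transcripts and the NPIP among abundant ones. The median log2FC of all genes tested, called or not, moved the same way, from 0.20 under 2 to −0.21 at 8 and over. A few transcripts nevertheless took a large part of the POP libraries. The 10 most abundant genes by TPM (a read share scaled for gene length) held 20.4%, 9.92% and 14.6% of the TPM in the POP of roots 1, 2 and 3. In the NPIP these shares were 6.22%, 7.73% and 3.87%. The genes called higher together held 24.9%, 12.6% and 20.2% of the normalized counts in the POP and 2.90% to 3.44% in the NPIP, while those called lower held 6.15% to 8.30% in the POP and 14.3% to 19.7% in the NPIP. Root 2 was the lowest of the POP libraries in the first of these shares and the lowest of the NPIP libraries in the last.

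**Figure D1:**
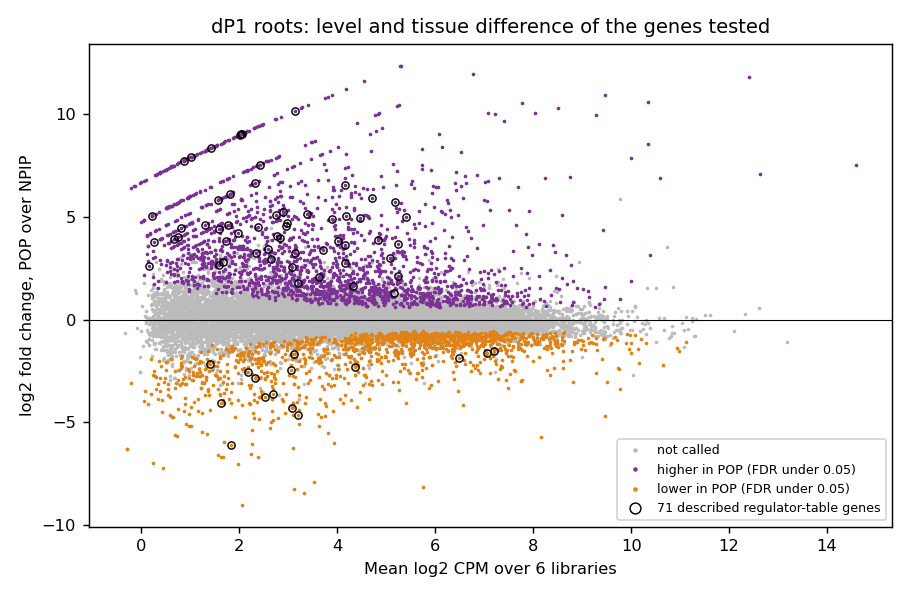
Each point is 1 of the 17452 genes tested in dP1, with the mean log2 CPM over the 6 libraries on the horizontal axis and the fitted log2 fold change of POP over NPIP on the vertical axis. Purple points are the 1999 genes called higher in the POP, orange points the 1294 called lower and grey points the rest, and circles are the 71 genes described below; increases reach further and prevail at low levels, while decreases prevail at high levels, and the parallel lines at the upper left are genes with 0, 1 or a few reads in the NPIP, whose fitted values depend on the prior count.

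With root as a block, 2561 genes were higher (14.7%) and 1784 lower (10.2%). Of the calls made without the block, 1974 higher and 1256 lower remained. Libraries of the same root deviated together from the mean of their tissue, and the common biological coefficient of variation was 0.344 without and 0.247 with the block. The counts rested on roots 1 and 3 more than on root 2. Without root 2, 2772 genes were higher and 1816 lower. Without root 1, 393 were higher and 104 lower, and without root 3, 191 were higher and 42 lower, each with 2 roots left per tissue. Leaving out single libraries gave 1192 higher and 370 lower genes without POP replicate 1, 510 lower without POP replicate 3, 1090 and 484 without NPIP replicate 1, and 1087 and 447 without NPIP replicate 3.

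Genes linked to phloem identity, barrier layers and secondary walls moved with the tissue. The 8 genes given here come from the study's lists of genes that kept a direction in these and the other libraries. That choice set their direction, so it is no independent evidence on the cells of the tissues. APL is the MYB-like factor that gives phloem cells their identity in Arabidopsis, and its 3 homologs DCAR_009660, DCAR_019908 and DCAR_019886 all fell in the POP. Their summed level was 1.19, 3.92 and 2.19 CPM in the POP of roots 1, 2 and 3 and 19.6, 25.3 and 27.6 CPM in the NPIP. The highest POP sum was less than the lowest NPIP sum by a wide margin, although both tissues are labelled phloem. In bulk tissue, fewer cells of a type cannot be told apart from less of their RNA per cell. Genes of suberin, wax and barrier layers behaved in the opposite way. MYB39 (DCAR_028146), which controls suberin in Arabidopsis roots, the wax ester synthase WSD1 (DCAR_013325) and GSO1 (DCAR_023758), a receptor kinase needed for the Casparian strip, rose in the POP. They summed to 18.9, 36.0 and 21.0 CPM in the POP and 1.28, 1.85 and 0.573 CPM in the NPIP. KNAT7 (DCAR_008430), a repressor of secondary wall genes, and the IRX15-like DCAR_010869 summed to 18.8, 18.5 and 8.86 CPM in the POP. In the NPIP they summed to 0.770, 1.62 and 0.573 CPM, so both rose. Whether the POP held more wall-forming cells was not tested, so this sum gives levels only. All 3 APL, 3 barrier and 2 wall genes had a read in each tissue, so none of the markers was absent. Each of these 8 genes kept its direction in every root, and the part of such cells in the other differences was not tested. Fewer of the marker calls were left without some libraries. The APL calls became 1 without POP replicate 1, POP replicate 3 or NPIP replicate 3 and 2 without NPIP replicate 1 or 2, and the barrier calls became 1 without NPIP replicate 1. Without root 1, 1 APL, 1 barrier and 1 wall call were left. Without root 3, 1 APL and 1 wall call were left, and edgeR called 0 of the 3 barrier genes, all 3 of which had an unadjusted p under 0.05.

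Of the 71 genes that the study's table of regulators lists, 53 were higher in the POP, 15 were lower and 3 did not pass. These genes had been chosen on these and the other libraries of the series for keeping a direction, so the count is no independent evidence of it. Over all genes tested, 11.5% were higher and 7.41% lower. The median log2FC of the 71 was 3.82 against 0 over all genes. The members of a family below are those of this table alone, so their counts and directions were set by that choice and say nothing of the other members of the family, which were tested without a name. The listed WRKY, MYB, bHLH, ERF and NAC genes were mostly higher in the POP, and the listed homeobox, MADS, Dof, bZIP and other factors were mostly lower. Of the 68 calls, 22 were left without root 1, 6 without root 3 and 70 passed without root 2. Each member still kept its sign in every root. Leaving out single libraries left 44 to 67 calls, with the lowest counts of 44 without NPIP replicate 3, 48 without POP replicate 1 and 49 without POP replicate 3 or NPIP replicate 1. With root as a block and no library left out, 70 of the 71 passed. They include every gene of the 71 said below to lose its tissue call.

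**Figure D2:**
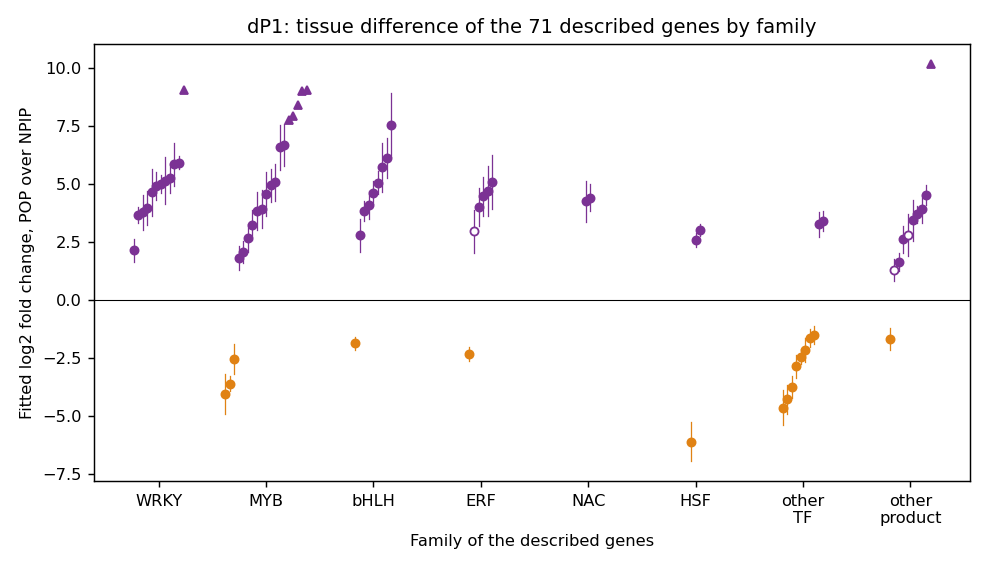
Fitted log2 fold change of POP over NPIP in dP1 for the 71 described genes by family, with the standard error as a line. Filled symbols passed an FDR of 0.05 and open ones did not, and triangles are genes with no read in the NPIP, whose fitted value is no bound; all 12 listed WRKY genes lie above 0 and 8 of the 10 other transcription factors below it.

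WRKY factors bind the W-box of many defence, senescence and stress genes. The 12 WRKY genes of that table, which are not the whole family, all rose in the POP, with a median log2FC of 4.93. The lowest was 2.12. The 12 calls became 9 without POP replicate 1, 7 without root 1 and 3 without root 3, and the log2FC of all 12 stayed positive. WRKY41 DCAR_027713 (chromosome 8, 20266332 to 20268600 in the carrot assembly v2.0) had the smallest FDR of the 71 genes of that table. Its CPM was 61.4, 48.2 and 42.5 in the POP of roots 1, 2 and 3 and 0.642, 1.04 and 0.802 in the NPIP. The lowest POP value was thus far above the highest NPIP value (log2FC 5.90, SE 0.29, FDR = 0.000355 from edgeR). A second WRKY41 gene, DCAR_005034 (chromosome 2, 3605438 to 3606931), reached 42.6, 24.6 and 30.6 CPM in the POP and 2.18, 2.09 and 3.55 CPM in the NPIP (log2FC 3.63, SE 0.34, FDR = 0.00140). WRKY6 is known for its part in senescence and phosphate transport in Arabidopsis. Its homolog DCAR_004233 (chromosome 1, 45900611 to 45903433) stood at 128, 62.3 and 56.1 CPM in the POP and at 2.95, 2.32 and 2.52 CPM in the NPIP (log2FC 4.98, SE 0.40, FDR = 0.000966). In the NPIP this gene was nearly constant, while root 1 had about the level of the other roots together in the POP. WRKY50 (DCAR_000809), of salicylic and jasmonic acid signalling, had no read in the NPIP and 9.0, 6.10 and 8.26 CPM in the POP, a difference of at least 64.5-fold.

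MYB factors govern phenylpropanoid genes, cell identity and stress responses. Of the 19 MYB genes listed, 16 rose in the POP and 3 fell, and the 3 that fell were the APL homologs. The median log2FC of the 19 was 4.55. RAX1 and RAX2 control axillary meristems in Arabidopsis, and 3 genes of this kind rose. RAX2 DCAR_015002 (chromosome 4, 16426186 to 16428272) had no read in the NPIP and 12.2, 6.10 and 4.74 CPM in the POP, which is higher by at least 62.8-fold (FDR = 0.00478 from edgeR). The other RAX2 gene, DCAR_012015, had 14.2, 4.36 and 10.1 CPM in the POP and 2 reads in the NPIP, both in root 2, which is a ratio of 116 (95% interval 31.7 to 962, FDR = 0.00418). Intervals and bounds cover counting error only. MYB5 (DCAR_028312, chromosome 8, 9013410 to 9014567), a seed coat and trichome factor of Arabidopsis, was also without a read in the NPIP, at 12.2, 7.08 and 4.25 CPM in the POP (higher by at least 64.5-fold, FDR = 0.00494). Of the 16 MYB genes that rose, 5 had no NPIP read in any root. These were seen in 1 tissue only at this depth. The filter fixed their calls, so the FDRs printed for RAX2 DCAR_015002 and MYB5 give no support of their own.

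The MYB genes of highest level in the POP varied by root. Myb4 DCAR_018481, whose rice namesake acts in cold tolerance, had 73.4, 31.8 and 22.3 CPM in the POP of roots 1, 2 and 3 and 1.28, 0.348 and 2.52 CPM in the NPIP (log2FC 4.92, SE 0.72, FDR = 0.00506 from edgeR). The gene named after C1, the maize anthocyanin regulator (DCAR_003717, chromosome 1, 41385308 to 41386955), had 43.5, 9.59 and 52.0 CPM in the POP and 0, 0.232 and 0.802 CPM in the NPIP (log2FC 6.57, SE 0.96, FDR = 0.00512). It was lowest in root 2, where LDOX was highest. MYB108, known as BOS1 from its role in resistance to Botrytis, had 2 genes. DCAR_030168 stood at 47.2, 4.90 and 38.0 CPM in the POP and at 2.95, 1.27 and 2.18 CPM in the NPIP (log2FC 3.81, SE 0.82, FDR = 0.0190). Both C1 and this MYB108 gene were thus lowest in root 2 among the POP libraries. The MYB108 call was lost when any library of root 1 or root 3 was left out (FDR = 0.0598 to 0.0788). Of the APL homologs, DCAR_019886 (chromosome 6, 36007805 to 36009520) was the steadiest, at 0.794, 0.763 and 1.21 CPM in the POP and 12.2, 9.85 and 12.5 CPM in the NPIP (log2FC −3.62, SE 0.34, FDR = 0.00140). DCAR_009660 fell from 4.37, 9.85 and 7.67 CPM in the NPIP to 0.397, 2.40 and 0.850 CPM (log2FC −2.55, SE 0.64, FDR = 0.0324), and lost its call when any library but POP replicate 2 was left out (FDR = 0.0571 to 0.119). Without single libraries these 19 calls fell to 10 without POP replicate 3 or NPIP replicate 3 and 12 without NPIP replicate 1, and without roots 1 and 3 to 3 and 1, of which 2 and 0 were genes that rose (15 and 16 with an unadjusted p under 0.05 from edgeR).

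Of the 9 bHLH genes listed, 8 rose in the POP and 1 fell. bHLH36 (DCAR_026126, chromosome 7, 33364051 to 33365869) had 24.5, 39.1 and 40.2 CPM in the POP and 1.03, 0.348 and 1.72 CPM in the NPIP (log2FC 5.05, SE 0.50, FDR = 0.00169 from edgeR). bHLH120 (DCAR_021251) had 8.47, 20.2 and 8.14 CPM in the POP against 0.513, 0.348 and 1.26 CPM (log2FC 4.08, SE 0.61, FDR = 0.00546). Both had their POP and NPIP values well apart. bHLH92 (DCAR_027275), a stress-induced factor in Arabidopsis, was highest in the POP of root 2. Its CPM was 7.15, 21.5 and 1.58 in the POP of roots 1, 2 and 3, and the NPIP held 1 read in all, giving a ratio of 266 (95% interval 47.3 to 10500, FDR = 0.0109) that was not called without NPIP replicate 3 (FDR = 0.0586). bHLH28 (DCAR_006987) had 45.8, 30.2 and 16.4 CPM in the POP and 2.31, 9.62 and 1.49 CPM in the NPIP (log2FC 2.78, SE 0.72, FDR = 0.0352), and this call was lost when any library but NPIP replicate 2 was left out (FDR = 0.0547 to 0.119). DcbHLH3 (DCAR_002739, chromosome 1, 32455171 to 32460366), a bHLH gene that the study counts among the anthocyanin regulators, had 14.3, 155 and 43.0 CPM in the POP and 0.385, 2.67 and 0.916 CPM in the NPIP. Root 2 was highest and root 1 lowest in both tissues, which is the order of LDOX. DcbHLH3 rose by a log2FC of 5.71 (SE 1.06, FDR = 0.0115), differed between the roots (FDR = 0.00975), and missed the tissue call without NPIP replicate 3 (FDR = 0.0642). The member that fell was bHLH155 (DCAR_001795), a relative of the vascular regulator LONESOME HIGHWAY of Arabidopsis. It was abundant in both tissues, with 31.2, 48.0 and 34.6 CPM in the POP and 139, 101 and 181 CPM in the NPIP (log2FC −1.89, SE 0.28, FDR = 0.00511). These 9 calls became 6 without NPIP replicate 3, 3 without root 1 and 1 without root 3.

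ERF genes act downstream of ethylene and other stress hormones. Of the 6 listed, 4 rose, 1 fell and ERF5 (DCAR_004997) did not pass, with 5.69, 15.8 and 10.3 CPM in the POP and 0, 3.01 and 1.03 CPM in the NPIP (FDR = 0.0673 in edgeR, 0.00722 with root as a block). ERF109 (DCAR_007860), a jasmonate-responsive factor of Arabidopsis roots, had 10.5, 23.3 and 9.84 CPM in the POP, and its NPIP reads came from root 2 alone, at 1.62 CPM (log2FC 4.69, SE 1.08, FDR = 0.0245). ERF061 (DCAR_027706) showed the same arrangement, with 9.13, 23.9 and 4.25 CPM in the POP and NPIP reads in root 2 alone, at 1.04 CPM (log2FC 5.08, SE 1.17, FDR = 0.0240). These ERF genes were thus highest in root 2 in both tissues. ERF109 missed the call when any library but NPIP replicate 2 was left out (FDR = 0.0502 to 0.0744) and in DESeq2 (adjusted p = 0.0553), and ERF061 missed it without POP replicate 1 or NPIP replicate 1 or 3 (FDR = 0.0631 to 0.0831). ERF2 (DCAR_025068, chromosome 7, 22629324 to 22630603), named after the tobacco factor, went the other way. It fell from 29.9, 31.4 and 39.7 CPM in the NPIP to 4.37, 8.83 and 6.80 CPM in the POP (log2FC −2.33, SE 0.30, FDR = 0.00338). Both NAC100 genes, DCAR_016858 and DCAR_019896, rose, with log2FC of 4.39 and 4.23, and 1 of these calls was left without NPIP replicate 3 or without root 1. Without root 3 edgeR called 0 of them, and both had an unadjusted p under 0.05. The 4 rising ERF calls became 1 without POP replicate 1 or NPIP replicate 3. All of them were lost without NPIP replicate 1, without root 1 and without root 3, where edgeR called 0 ERF genes higher and 5, 5 and 4 had an unadjusted p under 0.05.

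Heat shock factors drive chaperone genes. HSF24 (DCAR_010894, chromosome 3, 30151464 to 30152245) reached 73.4, 54.0 and 51.2 CPM in the POP and 6.16, 9.15 and 6.99 CPM in the NPIP (log2FC 3.0, SE 0.25, FDR = 0.00107 from edgeR). HsfA4c (DCAR_027970) rose from 2.05, 2.55 and 2.52 CPM to 18, 12.2 and 12 CPM (log2FC 2.56, SE 0.30, FDR = 0.00260). In both genes the replicates of a tissue lay close together and the tissues far apart. HsfC1a (DCAR_030483) was the opposite case, with 2 reads in the POP of all 3 roots and 8.6, 2.43 and 8.70 CPM in the NPIP, a ratio of 81.4 in favour of the NPIP (95% interval 22.2 to 678, FDR = 0.00453). The 3 HSF genes listed therefore did not move in 1 direction, and 1 of the 3 calls was left without root 1 and 1 without root 3.

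Of the 10 other transcription factors listed, 8 fell in the POP and 2 rose. The factors that fell included genes of root meristem and vascular development. AGL12 (DCAR_001474, chromosome 1, 15799442 to 15801192), a MADS-box gene of the Arabidopsis root meristem, had 0.397, 1.64 and 0.243 CPM in the POP and 11.8, 16.2 and 18.8 CPM in the NPIP (log2FC −4.30, SE 0.62, FDR = 0.00481 from edgeR). The homeobox-leucine zipper gene HAT7 (DCAR_017713, chromosome 5, 22839439 to 22840174) had 0.265, 1.31 and 0.364 CPM in the POP and 23.4, 22.1 and 5.96 CPM in the NPIP (log2FC −4.66, SE 0.75, FDR = 0.00702). Root 3 was the lowest of the NPIP libraries in HAT7 and the highest in AGL12. The trihelix repressor ASIL2 (DCAR_022336) was steady within each tissue, at 3.44, 2.29 and 1.70 CPM in the POP and 13.0, 14.3 and 14.0 CPM in the NPIP (log2FC −2.47, SE 0.32, FDR = 0.00361). DOF4.6 (DCAR_006979) and bZIP9 (DCAR_004549) also fell, with log2FC of −2.87 and −2.17. The 8 falling calls became 5 without any 1 library of root 1 or root 3 and 2 without root 1. Without root 3 edgeR called 0 of the 10 factors in either direction, and 7 that fell and 2 that rose had an unadjusted p under 0.05.

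Among the factors that fell, PCL1 and JMJ30 belong to the circadian clock in Arabidopsis. PCL1 (DCAR_017856, chromosome 5, 24181486 to 24183510), a component of the evening complex, had 0.397, 1.09 and 0.729 CPM in the POP and 6.68, 13.2 and 11.0 CPM in the NPIP (log2FC −3.76, SE 0.47, FDR = 0.00323 from edgeR). JMJ30 (DCAR_002041), a histone demethylase under clock control, had 84.6, 72.0 and 36.6 CPM in the POP and 279, 140 and 187 CPM in the NPIP (log2FC −1.65, SE 0.37, FDR = 0.0227). The zinc finger gene C3H17 (DCAR_000675) had 49.4, 130 and 47.8 CPM in the POP and 200, 255 and 198 CPM in the NPIP (log2FC −1.52, SE 0.41, FDR = 0.0394). C3H17 and JMJ30 were abundant in both tissues and their differences were the smallest of the group. The JMJ30 call was lost when any library of root 1 or root 3 was left out (FDR = 0.0503 to 0.0761), and that of C3H17 when any library but POP replicate 2 was left out (FDR = 0.0816 to 0.145) and under a filter of 5 CPM (FDR = 0.0508). The factors that rose were NLP7 (DCAR_002189), the nitrate sensor and regulator of Arabidopsis, and KNAT7, a repressor of secondary wall genes. NLP7 reached 33.7, 18.8 and 18.5 CPM in the POP against 2.95, 1.16 and 2.63 CPM (log2FC 3.39, SE 0.43, FDR = 0.00339). KNAT7 reached 8.34, 12.6 and 5.22 CPM against 0.642, 1.51 and 0.573 CPM (log2FC 3.24, SE 0.53, FDR = 0.00763).

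The remaining 10 genes of that table have products other than transcription factors, and 7 rose, 1 fell and 2 did not pass. FLA10 (DCAR_016030, chromosome 4, 2086345 to 2086722), a fasciclin-like arabinogalactan protein of the cell surface, had 96.1, 39.5 and 74.3 CPM in the POP and 6.16, 4.98 and 5.27 CPM in the NPIP (log2FC 3.67, SE 0.36, FDR = 0.00157 from edgeR). The cytochrome P450 gene CYP71D11 (DCAR_012878, chromosome 4, 34568561 to 34570410) had 21.0, 9.59 and 20.6 CPM in the POP and no read in the NPIP, at least 140-fold higher. With no NPIP read, its call (FDR = 0.00247) was fixed by the filter. FLA10 and CYP71D11 were both lowest in root 2 among the POP libraries. WSD1 (chromosome 4, 31023716 to 31025842) was more even, with 8.73, 10.9 and 8.99 CPM in the POP and 0.642, 0.232 and 0.344 CPM in the NPIP (log2FC 4.52, SE 0.43, FDR = 0.00157). The uncharacterized protein gene named At1g04910 (DCAR_015475) had 64.8, 65.6 and 28.5 CPM in the POP and 2.31, 6.84 and 1.49 CPM in the NPIP (log2FC 3.89, SE 0.61, FDR = 0.00644). The universal stress protein gene USPA (DCAR_008097) was the 1 that fell, from 11.3, 18.7 and 8.36 CPM in the NPIP to 1.85, 5.99 and 3.89 CPM (log2FC −1.70, SE 0.49, FDR = 0.0495). Its call was at the edge of the threshold: it was lost when any library but POP replicate 2 was left out (FDR = 0.0753 to 0.146), with RLE size factors (0.0525) and with another filter (0.0528 and 0.0582). With root as a block USPA passed (FDR = 0.0112 from edgeR). Without single libraries the calls of these 10 genes became 4 without POP replicate 1, and 5 without POP replicate 3 or any 1 NPIP library. Without root 1, 3 were left, and without root 3 edgeR called 0, with 7 that rose and 1 that fell at an unadjusted p under 0.05.

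Per length, the most abundant of the described genes, leaving out the anthocyanin pathway and the study's candidate lists for the mapped regions of chromosome 3, was actin (DCAR_030967) in both tissues. It had 336, 551 and 281 TPM in the POP and 791, 733 and 785 TPM in the NPIP. Actin was the reference gene of the quantitative PCR in the study, which used roots of other plants. Its counts of 423, 638 and 349 CPM in the POP lay wholly below 862, 835 and 735 CPM in the NPIP. The log2FC of −0.79 (SE 0.26) did not pass in edgeR (FDR = 0.0744), and passed with root as a block (FDR = 0.0427), in DESeq2 (adjusted p = 0.0315) and without POP replicate 2 (FDR = 0.0159). On the scale of all 18 libraries, actin in dP2 had 530, 564 and 745 CPM in the POP and 525, 545 and 671 CPM in the NPIP. In pP it had 405, 581 and 470 CPM in the POP and 629, 648 and 631 CPM in the NPIP. After actin, the highest levels in the POP were those of FLA10 (210 TPM on average), C3H17 (114 TPM), HSF24 (88.8 TPM) and bHLH36 (58.5 TPM). In the NPIP they were those of C3H17 (372 TPM), JMJ30 (194 TPM), HAT7 (93.6 TPM), bHLH155 (67.9 TPM) and ERF2 (67.1 TPM). The leading genes of the NPIP were hence those that fell in the POP, and C3H17 was among the first of both. The subunit K gene of the plastid NAD(P)H complex (NDHK, DCAR_019469) averaged 46.5 TPM in the POP and 23.0 TPM in the NPIP without passing (FDR = 0.103, 0.0157 with root as a block).

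**Figure D3:**
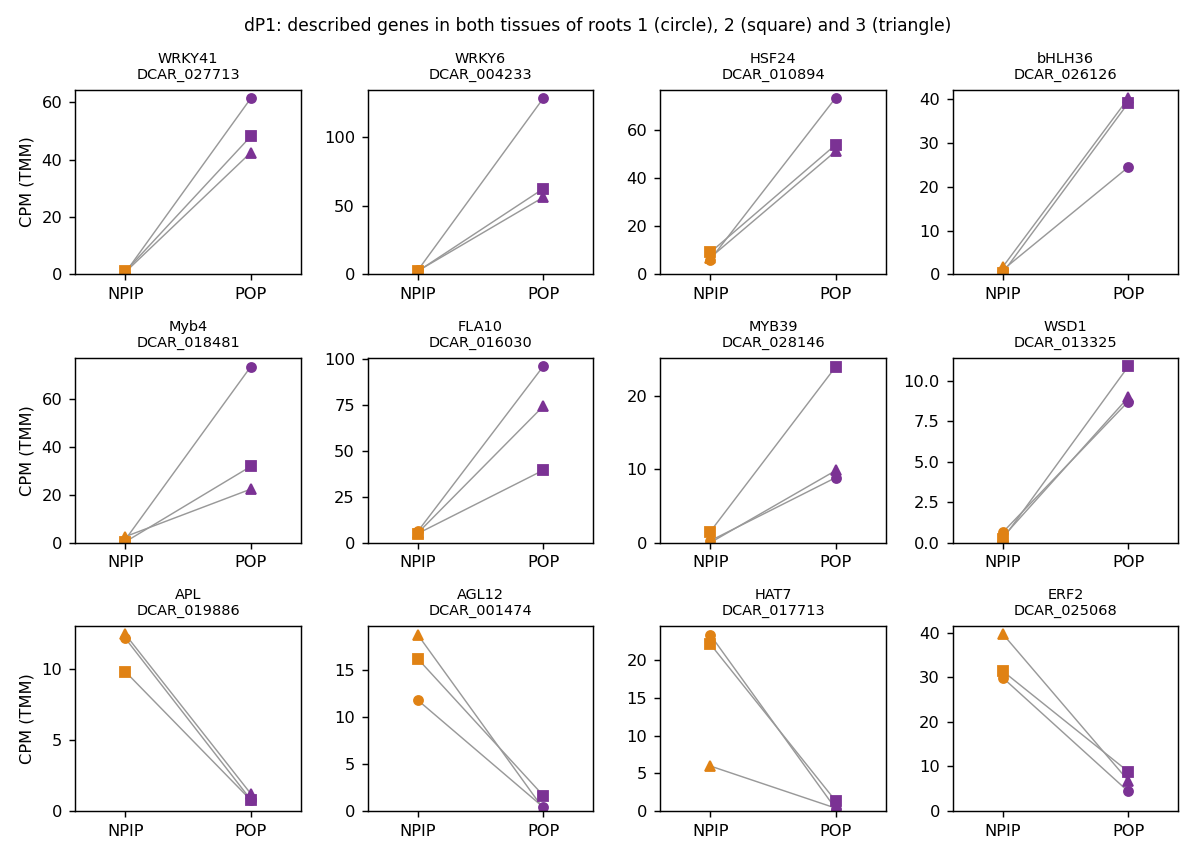
CPM after TMM scaling of 12 described genes in the NPIP and POP of dP1, with 1 symbol per root and a line joining the tissues of a root; each panel has its own axis from 0. In 8 genes all POP values lie above the NPIP values and in APL, AGL12, HAT7 and ERF2 all lie below, for example 61.4, 48.2 and 42.5 CPM against at most 1.04 CPM for WRKY41.

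Among genes without a name, those of smallest FDR at a mean log2 CPM of at least 4 were DCAR_019728 and DCAR_019759, which rose, and DCAR_009780 and DCAR_014870, which fell. DCAR_019728 had 1555, 761 and 1424 CPM in the POP and 1.41, 0.927 and 1.37 CPM in the NPIP (log2FC 9.96, SE 0.45, FDR = 0.000355 from edgeR). It changed from a rare transcript to one of 2570 TPM on average. DCAR_019759, whose number follows that of a WRKY6 gene of chromosome 5, had 333, 377 and 442 CPM in the POP and 18, 14.6 and 15.5 CPM in the NPIP (log2FC 4.58, SE 0.21, FDR = 0.000355). Its WRKY6 neighbour, DCAR_019758, had 7.94, 2.73 and 5.71 CPM in the POP and 2 reads in the NPIP, a ratio of 66.5 (95% interval 18 to 555, FDR = 0.00673). Both neighbours thus rose. DCAR_009780 fell from 26.8, 38.0 and 32.0 CPM in the NPIP to 1.32, 2.18 and 2.19 CPM in the POP (log2FC −4.07, SE 0.29, FDR = 0.000742). DCAR_014870 fell from 179, 170 and 188 CPM to 41.4, 39.3 and 36.6 CPM (log2FC −2.19, SE 0.16, FDR = 0.000742), and its replicates were the closest of the 4. Genes that follow each other by number and were called the same way formed 14 runs of at least 4 higher genes, with 58 genes in all, and 2 runs of lower genes, with 9. The longest runs of either kind held 5 genes. Near-identical neighbours can share reads, so the genes of a run may not be counted independently.

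The 3 roots differed from each other in 248 genes, 1.42% of those tested (FDR under 0.05 by edgeR, both root terms in a fit with tissue). Root 2 was the most different in 155 of them, 83 higher and 72 lower than the other two, root 3 in 59 and root 1 in 34. Of the 248 genes, 211 were not called between the tissues. The other 37 comprised 31 that were higher and 6 that were lower in the POP. The 5 described genes of smallest FDR were all of the anthocyanin pathway, and root 1 was the odd one in each. LDOX (DCAR_006772), which makes the coloured anthocyanidins, had 33.2, 1933 and 603 CPM in the POP of roots 1, 2 and 3 and 0.385, 16.9 and 3.21 CPM in the NPIP (FDR = 0.00414 between roots). The glutathione transferase gene DcGST1 (DCAR_003401), of anthocyanin transport, had 5.43, 563 and 195 CPM in the POP and 0.128, 4.98 and 2.06 CPM in the NPIP (FDR = 0.00269). The ranks of the roots were the same in the purple and in the unpigmented tissue. F3H (DCAR_009483), with 9.0, 574 and 221 CPM in the POP, and the glycosyltransferase genes DcUCGalT1 (DCAR_009912), with 15.7, 726 and 201 CPM, and DcUCGXT1 (DCAR_021269), with 5.96, 201 and 86.6 CPM, followed them (FDR = 0.00414, 0.00562 and 0.00496). Of the 16 anthocyanin genes, 7 were called between the roots.

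The steps of the pathway were not alike in this. PAL, which opens the phenylpropanoid pathway, has 3 genes here, and DCAR_014989 had 87.5, 213 and 151 CPM in the POP of roots 1, 2 and 3. The 4CL gene DCAR_021385 had 143, 100 and 160 CPM. Neither was called between roots (FDR = 0.307 and 0.903 from edgeR), and in 4CL root 1 was above root 2. CHS (DCAR_030786), the first step to flavonoids, had 33.5, 4348 and 785 CPM in the POP and 4.88, 61.1 and 22.1 CPM in the NPIP. Because of root 1, its POP and NPIP values overlapped: root 1 in the POP was below root 2 in the NPIP. CHS was thus the 1 anthocyanin gene of 16 not called between the tissues in the main fit (FDR = 0.0520, 0.00233 with root as a block), and the other 15 were higher in the POP. All 16 were called in DESeq2, by the likelihood ratio test, with no filter and in the fit of all 18 libraries. With RLE size factors or unrounded counts 15 were called, and with a filter of 5 CPM 14 of the 15 tested. Without root 1, 12 of the 16 were called and without root 3, 5, while single libraries left 6 without NPIP replicate 1 or 3 and 8 without POP replicate 3, and all 16 log2FC stayed positive in each of these fits. Within each root, the POP exceeded the NPIP in all 16 genes. The study had named these 16 genes for being higher in the POP of these and the other libraries, so that choice set their direction. Over all genes tested, 11.5% were higher in the POP. The median log2 ratio of the tissues within a root, with 0.5 CPM added, was 3.61 in root 1, 5.86 in root 2 and 5.59 in root 3. For LDOX the ratio was 86.2, 114 and 188, so in this gene the tissue ratio varied far less between roots than the POP level did. In other genes the ratio was far lower in root 1. DFR (DCAR_021485) had 11.3, 536 and 239 CPM in the POP and ratios of 4.61, 70.2 and 56.3. The ratios were 6.86, 71.2 and 35.5 for CHS, 12.4, 101 and 221 for CHI (DCAR_027694) and 4.35, 31 and 22.6 for F3'H (DCAR_014032), the hydroxylase of the B ring. The MYB gene DcMYB7 (DCAR_010745), named here after its values were seen, had 2.65, 36.2 and 14.8 CPM in the POP and 0, 3.59 and 1.03 CPM in the NPIP, the same order of roots (FDR = 0.0358 between roots). Its tissue values overlapped, and it was called between the tissues with root as a block and not without it (FDR = 0.00113 and 0.0818 from edgeR). The study lists it as higher in the POP in each of its comparisons.

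**Figure D4:**
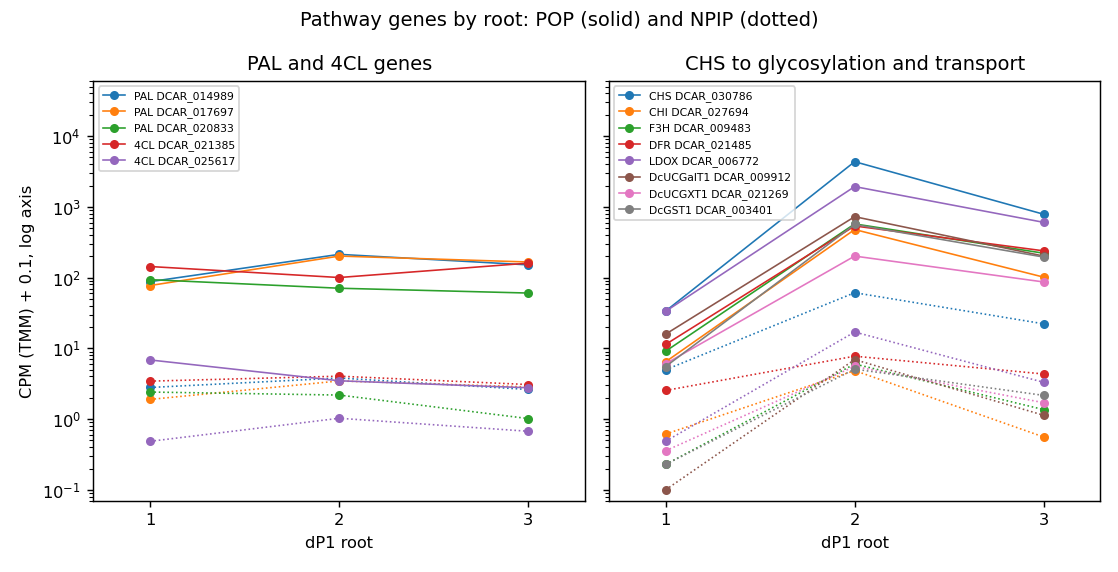
CPM after TMM scaling plus 0.1, on a log axis, for 5 PAL and 4CL genes and 8 later anthocyanin genes in roots 1, 2 and 3 of dP1, with POP as solid and NPIP as dotted lines. The 8 later genes drawn are lowest in root 1 and highest in root 2 in the POP, as in LDOX with 33.2, 1933 and 603 CPM, and also in the NPIP except CHI, which is lowest in root 3; the PAL and 4CL genes span a smaller range.

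Other genes differed between roots in both tissues alike. Among the genes without a name, DCAR_007378 had 0.926, 159 and 177 CPM in the POP of roots 1, 2 and 3 and 0.385, 125 and 105 CPM in the NPIP. On the scale of all libraries its level in the 12 libraries of pP and dP2 was 125 to 349 CPM, so it was nearly silent in both libraries of root 1 of dP1 and in no other library of the series. DCAR_013281 was the reverse for root 2, at 61.9 CPM in that root's POP and 66.7 CPM in its NPIP and at most 1.99 CPM in the other 4 libraries. In the pP set, DCAR_013281 was low in POP replicate 1 (0.801 CPM) and NPIP replicate 3 (0.973 CPM) and at 24.5 to 33.6 CPM in the other 4, so libraries of pP with the same number did not share its state, whereas those of dP1 did. Counting genes with at most 3 reads in both libraries of 1 root and at least 5 CPM in all 4 other libraries, 3 genes were silent in root 1, 5 in root 2 and 4 in root 3. This choice builds in a difference between roots and none between tissues, so the tests are given as a description. All 12 were called between roots (FDR = 0.00201 to 0.0357 from edgeR) and none between tissues (FDR = 0.659 to 0.993). No gene was expressed in 1 root and silent in both others by these limits.

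The genes that differed between roots were not spread evenly over the gene numbers. In the block from DCAR_013000 to DCAR_013499, 22 of 331 genes tested were called (6.65%), and root 2 was the odd one in 21 of them. In the 2 blocks beside it, 12 of 302 and 14 of 359 were called, again mostly for root 2, with 10 and 13. No other block of 500 numbers had more than 9. The range was chosen after these counts were seen, and no test was made of it. Described genes place it on chromosome 4: DCAR_013728 lies from 27892053 to 27894935, DCAR_013625 from 28741714 to 28746502, DCAR_013325 from 31023716 to 31025842 and DCAR_012878 from 34568561 to 34570410. Between the first and the last of these, 32 of 562 genes tested differed between roots (5.69%), 15 lower and 15 higher in root 2 and 2 for root 3. The tissues differed there in 16.9% of the genes, close to the 18.9% of all genes.

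**Figure D5:**
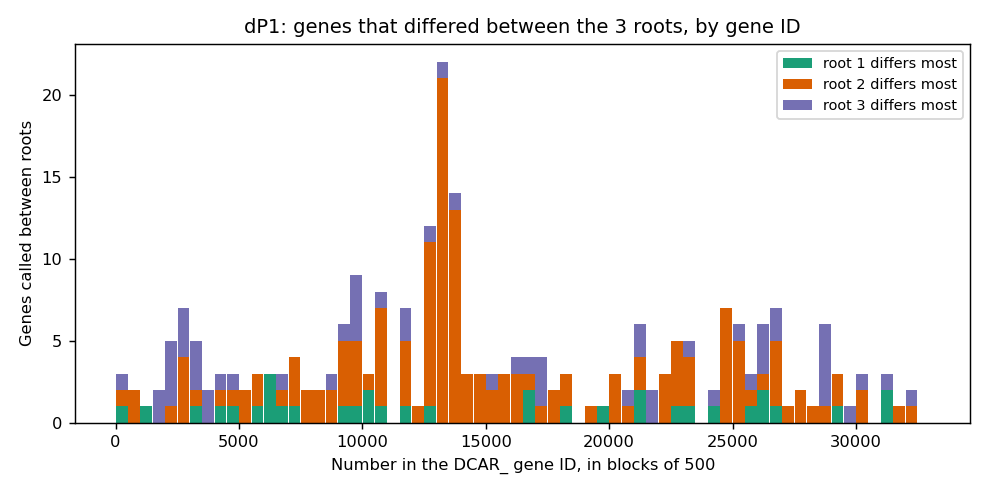
Number of genes called between the 3 roots of dP1 in blocks of 500 gene numbers, coloured by the root that differed most from the mean of the other two. The tallest bar, from 13000, holds 22 genes, 21 of them for root 2, beside 12 and 14 in the neighbouring blocks and at most 9 elsewhere.

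The tissue difference of dP1 was set beside those of the other sets. In dP2, 1540 genes were higher in the POP (8.22%) and 685 lower (3.66%), and in pP, 861 were higher (4.89%) and 237 lower (1.35%), each in its own fit of 6 libraries. Of the genes tested in both sets, dP1 and pP called 640 higher in common, which is 34.1% of the dP1 list and 85.3% of the pP list, and 174 lower, 14.2% and 77% of the lists. With dP2, 613 higher calls were shared, 32.2% of the dP1 list and 58.5% of the dP2 list, and 219 lower, 17.9% and 38.1%. The sign of the dP1 calls was kept in 98.3% of the higher and 97.9% of the lower genes in pP, and in 87.3% and 78.9% in dP2. Calls in opposite directions were absent between dP1 and pP. Between dP1 and dP2 there were 31, of which 26 were lower in the POP of dP1 and higher in that of dP2. In dP2 all 3 APL homologs fell and all 3 barrier and 2 wall genes rose, while in pP 1, 2 and 1 of them passed. The study had chosen these genes on dP2 and pP as well, so this is no independent evidence.

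Tests of the difference itself were made in 1 fit of all 18 libraries with 20253 genes, and the CPM from here on are on its scale. The tissue effect of dP1 differed from that of dP2 in 490 genes (2.42%), 253 with a more positive effect in dP1 (1.25%) and 237 with a more negative one (1.17%). From that of pP it differed in 3 genes, all more positive in dP1 (0.0148%) and none more negative (0%), where 907 genes had an unadjusted p under 0.05 and 26 passed by the likelihood ratio test. Family, site and xylem colour cannot be told apart from the set for dP2. Of the 111 described genes, 3 differed between dP1 and dP2. The invertase gene DCAR_009482, of sucrose breakdown, had 4.6, 8.35 and 2.32 CPM in the POP and 8.31, 6.34 and 7.16 CPM in the NPIP of dP1, without a call (log2FC −0.49, FDR = 0.486). In dP2 it had 13.6, 19.5 and 17.6 CPM in the POP and 0.448, 0.555 and 1.14 CPM in the NPIP, and the effects differed by −5.05 (SE 0.60, FDR = 0.00156). The gene thus had a tissue difference in dP2 that the values of dP1 did not show. WRKY6 DCAR_004233 was higher in the POP of both sets, with 2.99, 2.39 and 2.58 CPM in the NPIP of dP1 and 48.3, 88.5 and 128 CPM in that of dP2, and the effect was larger in dP1 by 2.55 (SE 0.53, FDR = 0.0266). This call was lost without POP replicate 1 or NPIP replicate 1 or 3 of dP1 (FDR = 0.0639 to 0.0707). The third was the pathogen-related gene DCAR_010700, which rested on a single read in the NPIP of dP1 and was also among the 3 genes that differed from pP. Another WRKY6 gene, DCAR_019267, had effects that differed by −3.76 between dP1 and dP2 (FDR = 0.0516, 0.0249 with root as a block and 0.0488 without NPIP replicate 2). FLA10 differed by 1.96 (FDR = 0.0634, 0.0272 without POP replicate 2).

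No anthocyanin gene passed for a difference in tissue effect between dP1 and either of the other sets, which does not show that the effects were alike. In simulated counts with changes put on genes drawn at random, the contrast against pP found 1.4% of log2 differences of 1 and 33.3% of those of 2. These rates are not those of the 16 anthocyanin genes, some of which differed between roots. The 16 genes had also been chosen for being higher in the POP of every set. Over the 16 genes the median difference was 0.48 against dP2, with a range of −2.39 to 2.67, and 0.91 against pP, with a range of −1.42 to 2.99, beside medians of 0.03 and 0.01 over all genes, and 2 and 1 of the 16 had an unadjusted p under 0.05. The 71 genes of the table of regulators gave 1 call against dP2 and 0 against pP, where 12 had an unadjusted p under 0.05 in each. The named genes nearest to a difference from pP were WRKY6 DCAR_004233 (larger in dP1 by 2.02, SE 0.53, FDR = 0.771), the aldehyde dehydrogenase gene ALDH2C4 (DCAR_010446, by 3.21, SE 0.95, FDR = 0.840), the UNC93-like gene DCAR_010563 (by 1.49, SE 0.46, FDR = 0.844) and C1 (by 4.29, SE 1.39, FDR = 0.922). None of these passed. Among genes without a name, DCAR_024791 and DCAR_009815 were more positive in dP1 than in pP. DCAR_024791 had 555, 201 and 470 CPM in the POP and 4.03, 5.62 and 4.58 CPM in the NPIP of dP1, and 54.4, 92.4 and 93.4 CPM in the NPIP of pP, where the POP had 245 to 551 CPM (difference 4.02, SE 0.55, FDR = 0.0169). The sets thus differed mainly in the NPIP. DCAR_009815 had 20.9, 28.1 and 26.8 CPM in the POP and 4.42, 4.79 and 3.99 CPM in the NPIP of dP1, against 11.3 to 15.6 and 9.0 to 12.7 CPM in pP (difference 2.14, SE 0.28, FDR = 0.0122). With root as a block none of the 3 genes passed against pP (FDR = 0.0999 to 0.193), and this block uses the numbers of pP, which did not pair its libraries in DCAR_013281. Of the libraries of roots 1 and 3, leaving out POP replicate 1, POP 3, NPIP 1 and NPIP 3 in turn left 2, 1, 0 and 1 genes against pP (FDR = 0.0505 for both DCAR_010700 and DCAR_009815 where 0 passed), and 73, 147, 95 and 137 against dP2. Without POP replicate 2 these counts were 6 and 956, and 5 genes passed against pP without NPIP replicate 2.

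Against dP2, the genes without a name of smallest FDR were DCAR_011900 and DCAR_018723, with a more positive effect in dP1, and DCAR_014087 and DCAR_020634, with a more negative one. DCAR_018723 had 34.7, 27.3 and 31.9 CPM in the POP and 1.30, 2.27 and 1.88 CPM in the NPIP of dP1. In dP2 it was abundant in both tissues, at 1030 to 1550 CPM in the POP and 1680 to 1810 CPM in the NPIP (difference 4.52, SE 0.53, FDR = 0.00156). DCAR_011900 had 17.3, 12.6 and 11.6 CPM in the POP and at most 0.390 CPM in the NPIP of dP1, and 16.9 to 26.6 and 11.4 to 21.9 CPM in dP2 (difference 5.69, SE 0.66, FDR = 0.00156). In both genes the tissues differed in dP1 and had like levels in dP2. DCAR_014087 fell in dP1, from 39.6, 19.4 and 41.7 CPM in the NPIP to 2.10, 2.78 and 2.80 CPM in the POP, and had 6.87 to 14.6 CPM in the POP and 6.05 to 7.32 CPM in the NPIP of dP2 (difference −4.45, SE 0.49, FDR = 0.00156). DCAR_020634 was the reverse case, with 14.5, 17.7 and 16.0 CPM in the POP and 10.6, 7.18 and 9.98 CPM in the NPIP of dP1, and a wider gap in dP2, of 6.96 to 9.92 against 0.454 to 0.672 CPM (difference −2.93, SE 0.34, FDR = 0.00156).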

How the data were processed

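RNA was sequenced from the POP and NPIP of 3 dP1 roots. The deposited files give, per gene and library, expected counts and TPM, which the authors made with RSEM and Bowtie2 after FastQC and Trimmomatic (version 0.32), per the submitters' processing notes and methods. Strand use in counting is not given in the sources used here, so near-identical or overlapping genes may share reads. Expected counts were rounded to whole numbers, and genes reaching 1 CPM in 3 or more of the 6 libraries were kept. TMM scaling and the quasi-likelihood test of edgeR (version 4.0.16, R version 4.3.3) with tissue as the term gave log2FC, SE and FDR (Benjamini-Hochberg over all genes tested, threshold 0.05). All TPM printed are the deposited values. Totals of 7994328 to 9109738 counts per library set the precision, and where a gene had no read in a tissue its fold was taken against 3 reads over that group.

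Both tissues of a root carry its number. Deviations from the tissue means correlated at 0.356, 0.466 and 0.373 between libraries of the same number and at −0.314 to −0.00381 between others, so the numbers pair the libraries, and root was used as a block in an alternative fit. Differences between roots were tested with both root terms in the fit of tissue and root. Other alternatives were RLE size factors, DESeq2 (version 1.42.0), the likelihood ratio test, other filters, unrounded counts, a fit of all 18 libraries and leaving out libraries or roots. Tissue effects of dP1 minus those of dP2 or pP were tested as contrasts in all 18 libraries.

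The members and lists were chosen with earlier results of these data known. Genes named were, per family, the 3 of smallest FDR in each direction at a mean log2 CPM of at least 2, the 12 largest called changes in each direction at a mean log2 CPM of at least 4 without overlap, the 10 of highest TPM in each tissue, and 2 rising and 2 falling genes without a name. In the other tests they were the 5 described genes of smallest FDR, and members added for their place in a list are given with their values. Names, and positions in the carrot assembly v2.0, come from the study's tables of genes. The scripts were tested on simulated data.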

Additional observations from a re-analysis of the deposited data

Results flagged for a closer look

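The tissue effect differed between dP1 and dP2 in 490 genes and between dP1 and pP in 3 genes by the interaction contrast of edgeR. Among the described genes, the effect of dP1 minus that of dP2 was 7.94 for the pathogen-related gene DCAR_010700, −5.05 for the invertase gene DCAR_009482 and 2.55 for WRKY6 DCAR_004233, all as log2. Among genes without a name it was 5.69 for DCAR_011900, 4.52 for DCAR_018723, −4.45 for DCAR_014087 and −2.93 for DCAR_020634. Against pP the differences were 5.57 for DCAR_010700, 2.14 for DCAR_009815 and 4.02 for DCAR_024791. The value of DCAR_010700 rests on 1 read in the NPIP of dP1 and depends on the prior count.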

How the results depend on the processing

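With root as a block, 2561 genes were higher and 1784 lower, 41 in place of 39 named genes passed, and 550 genes differed in tissue effect from dP2 and 0 from pP. The block changed the tissue calls of ERF5, NDHK, actin, CHS and DcMYB7, given in the report, and of no other gene described there. RLE size factors gave 2012 higher and 1242 lower genes, DESeq2 2513 and 1762, the likelihood ratio test 2396 and 1572, no filter 2301 and 1157, and a filter of 5 CPM 1394 and 947. The fit of all 18 libraries gave 2053 lower genes. Leaving out 1 library or 1 root gave 191 to 2772 higher genes, 42 to 1816 lower genes and 10 to 41 named genes. No result reversed under any alternative run.

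The likelihood ratio test gave 1169 genes for dP1 minus dP2, 26 for dP1 minus pP and 1616 between roots. The 12 libraries of dP1 and pP alone gave 1 gene for dP1 minus pP. Leaving out 1 library of dP1 gave 73 to 956 genes for dP1 minus dP2 and 0 to 6 for dP1 minus pP. A filter of 1 CPM in 2 libraries gave 392 genes between roots. The cause of these changes was not tested, except that fits without a library or root hold fewer samples. Without a library of either tissue, that tissue keeps 2 libraries. Genes of a few reads have fitted folds set in part by the prior count.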
